A study of Homo sapiens with 6 samples.

Results

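MRE11, RAD50 and NBN encode the subunits of the MRE11 complex, and ANKRD49, GPR83, FUT4, PIWIL4, AMOTL1 and CWC15 are protein-coding genes that lie near MRE11 on the long arm of chromosome 11. These 9 genes, of 60483 listed in the counts, were measured by RNA-seq in A2780 cells and in their CDK12 knock-out clone. The set was chosen from measured values of this same comparison, because the MRE11 counts were lower in the knock-out libraries, and was then filled with the partners of the MRE11 protein and the neighbours of the gene. The difference between the groups is therefore given for the 9 genes as a description, without a test. All 9 were among the 16198 genes that passed the filter on low counts.

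A2780 is an established ovarian carcinoma cell line. The 3 wild-type (WT) libraries came from the unmodified line, and the 3 knock-out (KO) libraries from A2780 cells edited with CRISPR/Cas9 against exon 1 of CDK12, the kinase that pairs with cyclin K and phosphorylates RNA polymerase II during elongation. Both groups were kept in RPMI with FBS and glutamine and received no drug. KO stands for a single clone, obtained by repeated rounds of transfection and selection, so the effect of the edited gene cannot be told apart from other properties of that clone. Among these, the study reported a doubled DNA content and a nearly doubled modal number of chromosomes relative to the parental line. The labels do not say that the 3 libraries of a group came from separate cultures, so every p-value below measures only the spread between these libraries, which may be technical.

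The libraries held 11098400 to 30899045 counts. The smallest was WT replicate 3, in which 3 counts equal 0.270 CPM, counts per 1000000 counts of a library after scaling. Such floors cover counting error only. CDK12 itself had 103, 125 and 117 CPM in WT and 99.0, 93.0 and 102 CPM in KO, so that the highest KO library lay just under the lowest WT library (log2 fold change -0.23, SE 0.0582, edgeR adjusted p = 0.00082). KRT18, a keratin of simple epithelia, ranged from 58.1 to 62.0 CPM in WT and from 101 to 106 CPM in KO, whereas EPCAM went the other way, with 3.90, 2.34 and 3.33 CPM in WT and 2.20, 2.12 and 2.19 CPM in KO. KRT7, CDH1, PAX8, WT1 and MUC16 were at or near 0 in both groups. For PAX8 every KO library was below every WT library, but on only 18 counts over all 6 libraries. The summed level of the 9 epithelial and ovarian markers, mostly KRT18, ranged from 68.5 to 74.0 CPM in WT and from 114 to 119 CPM in KO. Among the 4 fibroblast markers, COL1A1 and COL1A2 made up nearly all of a sum of 5140 to 5270 CPM in WT and 2670 to 2810 CPM in KO, and DCN and LUM were below 0.82 CPM in WT and at 0 in KO. The 4 blood cell markers summed to at most 1.00 CPM and the 4 endothelial markers to at most 0.891 CPM in any library. The part of these shifts in the values below was not tested. In bulk RNA, fewer cells that express a gene and less of its RNA per cell cannot be told apart. CPM are also relative to the library, so they do not give the amount of RNA per cell.

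The MRE11 complex binds the ends of broken DNA. MRE11 is the nuclease, RAD50 is an ATPase of the SMC family whose long coiled coils tether the ends, and NBN (nibrin) carries the complex into the nucleus and recruits the kinase ATM. The complex starts the resection of ends for homologous recombination, activates the break checkpoint, and acts at telomeres and at stalled replication forks.

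MRE11 lies on the minus strand of chromosome 11 from 94415570 to 94493885 (GRCh38, GENCODE release 44), and ANKRD49 runs the other way on the plus strand from 94493979 to 94499578. The annotated starts of these neighbours are 94 bases apart in GENCODE and 140 bases apart in RefSeq. They are shown first because both genes carried the largest differences of the set and share one start region. The promoter windows of RefSeq (GRCh38.p14), 250 bases before to 50 after a start, were available for 7 of the 9 genes, and those of MRE11 and ANKRD49 have 239 bases in common. Below, each is written 5′ to 3′ on the strand of its own gene, in lower case, with 4 motifs in capitals, searched on both strands: the CCAAT box (CCAAT), the GC box (GGGCGG), an ETS site (CCGGAAG) and the TATA box (TATAAA), or their reverse complements. The MRE11 window is chr11:94493795-94494094 and the ANKRD49 window chr11:94493734-94494033.
MRE11: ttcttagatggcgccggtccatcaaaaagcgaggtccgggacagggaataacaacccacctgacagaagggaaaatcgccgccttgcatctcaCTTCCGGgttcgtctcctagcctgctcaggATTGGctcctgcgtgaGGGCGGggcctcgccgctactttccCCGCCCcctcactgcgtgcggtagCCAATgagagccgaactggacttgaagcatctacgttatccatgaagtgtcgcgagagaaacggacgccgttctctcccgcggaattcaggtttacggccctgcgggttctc
ANKRD49: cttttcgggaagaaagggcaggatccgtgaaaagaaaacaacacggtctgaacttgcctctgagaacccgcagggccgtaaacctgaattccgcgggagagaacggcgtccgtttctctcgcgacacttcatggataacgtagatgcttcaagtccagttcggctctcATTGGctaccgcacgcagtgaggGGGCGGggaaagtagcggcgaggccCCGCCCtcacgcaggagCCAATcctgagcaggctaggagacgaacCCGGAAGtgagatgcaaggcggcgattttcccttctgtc
Each of these windows held 2 CCAAT boxes, 2 GC boxes, 1 ETS site and no TATA box. All of these matches lie in the 239 shared bases, so they are the same sites read on opposite strands. Base 111 of the ANKRD49 window is the RefSeq start of MRE11 on the other strand.

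RAD50, the partner that also had less RNA in KO, and CWC15, the other gene of the set that shares its start region with an opposing gene, are shown for comparison, from chr5:132556727-132557026 on the plus strand and chr11:94973507-94973806 on the minus strand.
RAD50: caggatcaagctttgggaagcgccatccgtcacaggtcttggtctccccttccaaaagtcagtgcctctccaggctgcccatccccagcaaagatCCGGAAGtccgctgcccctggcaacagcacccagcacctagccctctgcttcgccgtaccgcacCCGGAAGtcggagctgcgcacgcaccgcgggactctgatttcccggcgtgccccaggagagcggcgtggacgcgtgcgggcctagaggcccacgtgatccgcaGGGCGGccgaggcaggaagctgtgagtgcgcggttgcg
CWC15: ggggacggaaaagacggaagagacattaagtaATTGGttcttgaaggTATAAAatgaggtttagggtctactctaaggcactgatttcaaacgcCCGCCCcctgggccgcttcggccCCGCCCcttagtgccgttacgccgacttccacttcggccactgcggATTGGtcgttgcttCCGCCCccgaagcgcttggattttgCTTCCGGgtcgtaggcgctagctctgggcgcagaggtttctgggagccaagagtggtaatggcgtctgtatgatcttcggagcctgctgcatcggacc
The RAD50 window held no CCAAT box, 1 GC box and 2 ETS sites, and the CWC15 window held 2 CCAAT boxes, 3 GC boxes, 1 ETS site and 1 TATA box. Of all 35116 windows in the table, 34.6% held the CCAAT box, 45% the GC box, 10.3% the ETS site and 11.5% the TATA box, against 4, 6, 4 and 2 of the 7 windows of the set. The sites shared by MRE11 and ANKRD49 count in both of their windows, so the 7 windows are not 7 separate regions. A match is a stretch of letters and was not measured as a binding site.

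The nuclease gene MRE11 had 1320, 1576 and 596 counts in the WT libraries and 396, 426 and 300 in the KO libraries. Scaled to the libraries, this was 48.2, 52.6 and 53.7 CPM in WT and 16.1, 15.8 and 16.9 CPM in KO. Every KO library was below every WT library, and the KO libraries lay close together. The WT mean was 51.5 ± 2.91 CPM and the KO mean 16.3 ± 0.532 CPM (SD, n = 3), which left 31.6% of the WT level (log2 fold change -1.66, SE 0.0665).

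RAD50 had 127, 132 and 131 CPM in WT and 89.0, 81.9 and 91.6 CPM in KO. The groups did not overlap, but the distance between them was smaller than for MRE11. Its mean went from 130 ± 2.73 to 87.5 ± 5.00 CPM (SD, n = 3), or 67.3% of the WT level (log2 fold change -0.57, SE 0.0512).

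NBN had 80.1, 87.2 and 86.0 CPM in WT and 89.4, 83.8 and 84.6 CPM in KO. The groups overlapped, with the lowest and the highest of the 6 values in WT replicate 1 and KO replicate 1. The WT mean was 84.5 ± 3.79 CPM and the KO mean 85.9 ± 3.02 CPM (SD, n = 3; log2 fold change 0.03, SE 0.0521). NBN occupies 89924515 to 90003228 on the minus strand of chromosome 8, and its ends overlap OSGIN2 by 3374 bases and DECR1 by 1824 bases on the opposite strand. OSGIN2 rose from 39.1 to 64.7 CPM (log2 fold change 0.74, SE 0.0595, edgeR adjusted p = 1.33e-12) and DECR1, an enzyme of fatty acid oxidation, from 59.2 to 88.9 CPM (0.58, SE 0.0534, edgeR adjusted p = 3.24e-11). The libraries were stranded, but the strand setting used for counting is not given in the sources used here, so a share of the NBN counts from these genes was not tested.

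**Figure D1:**
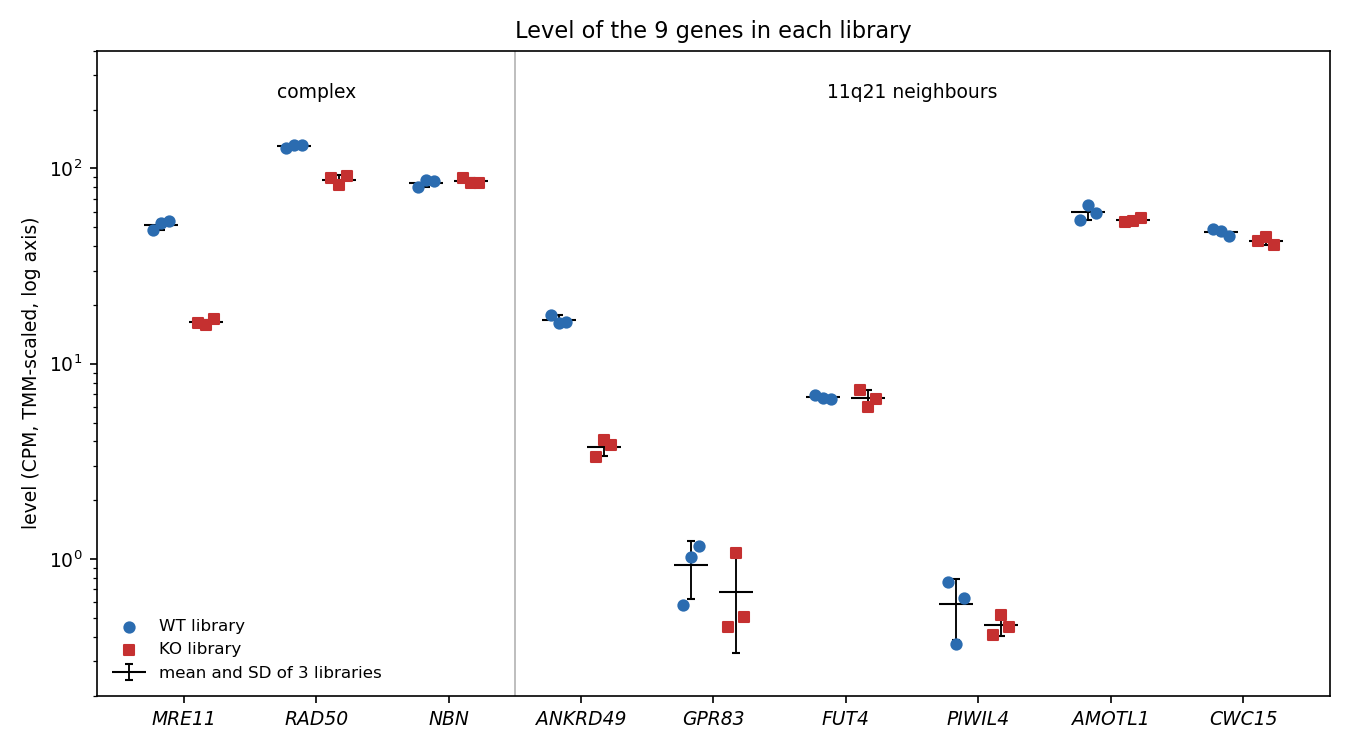
Level of the 9 genes in each library, in CPM on a log axis, with a point per library (WT circles, KO squares), a horizontal line for each group mean and error bars for the SD of 3 libraries. MRE11 and ANKRD49 have the widest gaps between groups, RAD50 a smaller one, and NBN, GPR83, FUT4, PIWIL4 and AMOTL1 overlap.

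Within each library the amounts of the 3 complex genes were compared per length, as RPKM, the CPM divided by the kilobases of merged exon. In WT, RAD50 was at 12.3 ± 0.258, MRE11 at 6.71 ± 0.380 and NBN at 4.35 ± 0.195 RPKM (SD, n = 3). In KO the order was RAD50 at 8.28 ± 0.474, NBN at 4.42 ± 0.155 and MRE11 at 2.12 ± 0.0693 RPKM. Each step in either order was wider than the spread between libraries. The order of MRE11 and NBN in WT depended on the length used: per longest transcript MRE11 was at 7.53 ± 0.426 and NBN at 9.78 ± 0.439 RPKM. MRE11 was the lowest of the 3 in KO with either length, at 2.38 ± 0.0778 RPKM per longest transcript.

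The ratio of MRE11 to RAD50, per kilobase of merged exon, was 0.523, 0.548 and 0.566 in the WT libraries and 0.249, 0.266 and 0.253 in the KO libraries. That of MRE11 to NBN was 1.52, 1.53 and 1.58 in WT and 0.456, 0.478 and 0.504 in KO. The groups were separate for both ratios, and the KO mean was 0.470 of the WT mean for the first and 0.311 for the second, values that depend neither on library scaling nor on gene length. NBN to RAD50 moved the other way, from 0.354 ± 0.00865 to 0.535 ± 0.0286 (SD, n = 3), 1.51 times the WT mean. No subunit thus kept its WT proportion to both of the others.

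**Figure D2:**
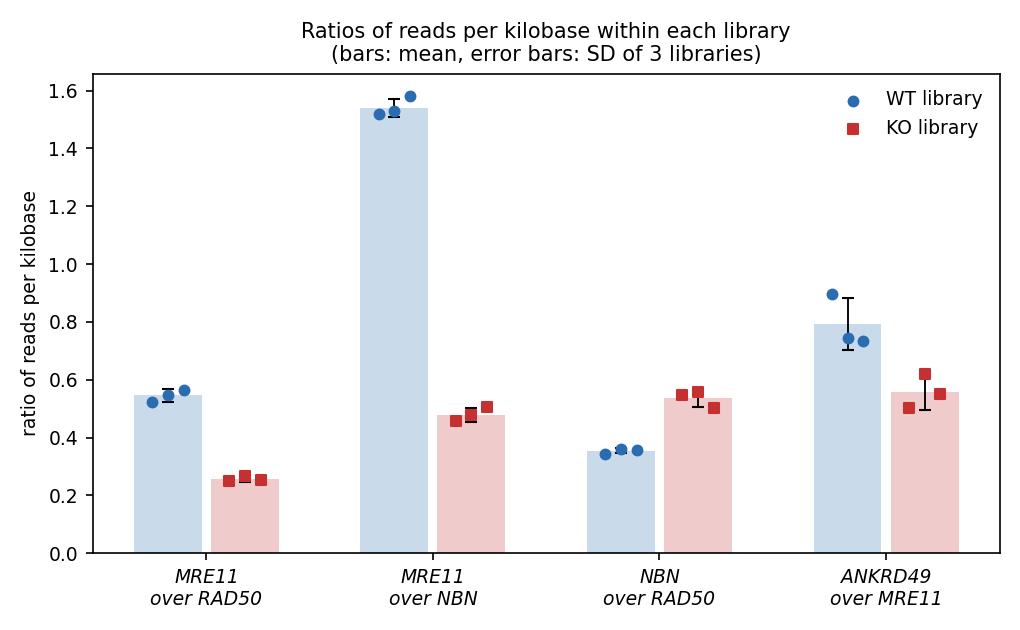
Ratio of length-scaled counts within each library for the complex genes and for ANKRD49 over MRE11, on a linear axis from 0, with a point per library, bars for the group means and error bars for the SD of 3 libraries. The WT and KO libraries are separate for every ratio shown, and NBN over RAD50 is the one that is higher in KO.

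ANKRD49, which encodes an ankyrin repeat protein, had 488, 484 and 181 counts in WT and 82, 109 and 68 in KO. Its level was 17.8, 16.2 and 16.3 CPM in WT and 3.34, 4.05 and 3.82 CPM in KO. All KO libraries were far below all WT libraries, and 22.3% of the WT mean remained, from 16.8 ± 0.917 to 3.74 ± 0.364 CPM (SD, n = 3; log2 fold change -2.17, SE 0.106). The ratio of ANKRD49 to MRE11 per kilobase was 0.895, 0.743 and 0.735 in WT and 0.501, 0.619 and 0.549 in KO. This ratio was lower in every KO library than in every WT library. In KO it rests on 68 to 109 counts of ANKRD49, and the difference between the groups was not tested.

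The other neighbours had small differences or few counts. GPR83, an orphan G protein-coupled receptor gene from 94377316 to 94401419 on the minus strand, had 16, 31 and 13 counts in WT and 11, 29 and 9 in KO, or 0.930 ± 0.307 and 0.677 ± 0.348 CPM (SD, n = 3). PIWIL4, a PIWI protein gene of the germline from 94543840 to 94621421 on the plus strand, had 21, 11 and 7 counts in WT and 10, 14 and 8 in KO. The groups overlapped for both genes. The log2 fold change of GPR83 was -0.32 (SE 0.326), and -0.89 without KO replicate 2. That of PIWIL4 was -0.30 (SE 0.354), -0.65 without WT replicate 2 and 0.06 without WT replicate 1, so its direction rests on single libraries with few counts.

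FUT4, a fucosyltransferase gene that makes Lewis x antigens, has 1 exon from 94543921 to 94549895 and lies wholly inside the span of PIWIL4 on the same strand. It had 6.90, 6.68 and 6.57 CPM in WT and 7.37, 5.98 and 6.63 CPM in KO. The KO libraries fell on both sides of WT (log2 fold change -0.02, SE 0.113).

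AMOTL1, a scaffold protein of the motin family that binds YAP at cell junctions, is encoded from 94706431 to 94876748 on the plus strand. It had 54.6, 64.8 and 59.0 CPM in WT and 53.3, 53.7 and 55.9 CPM in KO. The groups overlapped, since KO replicate 3 exceeded WT replicate 1 (log2 fold change -0.13, SE 0.0595).

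CWC15, a spliceosome subunit, is encoded from 94962620 to 94973586 on the minus strand. Its level was 48.8, 47.8 and 45.3 CPM in WT and 42.6, 44.3 and 40.6 CPM in KO. Every KO library was below every WT library, by a narrow margin (log2 fold change -0.16, SE 0.0579, 89.7% of the WT mean).

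Counted together, 4 of the 9 genes had all KO libraries below all WT libraries (MRE11, RAD50, ANKRD49 and CWC15), against 33.5% of all genes tested, and 0 had all KO libraries above, against 32.8%. With a call set by a size beyond 1 on the log2 scale together with an adjusted p under 0.05, MRE11 and ANKRD49 were called lower and no gene of the set higher. Over all genes, 7.73% were called lower and 8.30% higher. Because the set was chosen from this comparison, nothing is read from these counts. By size of the log2 fold change, ANKRD49 and MRE11 lay beyond the limit of 1 and RAD50, at -0.57, was the nearest on the other side of it.

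**Figure D3:**
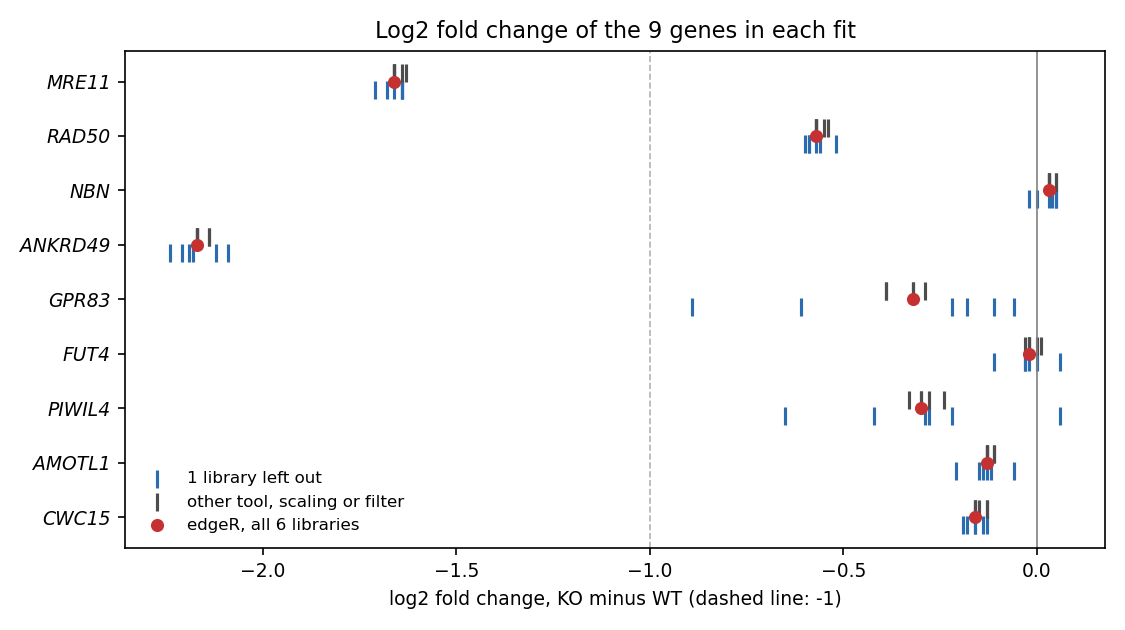
Log2 fold change (KO against WT) of the 9 genes with the edgeR fit of all 6 libraries as a circle and each alternative fit as a tick, blue where 1 library was left out and grey for another tool, scaling or filter. MRE11 stays between -1.71 and -1.63 and ANKRD49 between -2.24 and -2.09, whereas GPR83 and PIWIL4 spread widely.

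Reads can be shared between near copies or overlapping genes. The annotated processed pseudogene MRE11P1 had at most 1 count in a library. ANKRD49P1 had 10, 6 and 4 counts in WT and 5, 3 and 5 in KO, few beside ANKRD49 itself. A noncoding gene inside MRE11, ENSG00000255893, had at most 9 counts. The readthrough gene ENSG00000283782 overlaps RAD50 by 90061 bases on the same strand. It is not among the genes listed in the counts, so it has no counts to compare.

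To see whether the low values extended along chromosome 11, every gene whose start lay within 2 Mb of that of MRE11 was examined. Of 93 genes listed there, 27 were tested, and 20 of these were outside the set. Among the 20, CCDC82 was called lower and SESN3 and LNCRNA-IUR were called higher, the last of which passed the filter on low counts only through the KO libraries. These calls were 5.0% lower and 10.0% higher, against 7.73% and 8.30% of all genes tested. The median log2 fold change was -0.12, against 0.00 over all genes and -0.03 over the 855 tested genes of chromosome 11. By the adjusted p alone, 7 were lower and 3 higher, where 32.0% and 31.9% of all genes were. Leaving LNCRNA-IUR aside, the differences around MRE11 ran in both directions. On the GPR83 side the nearest tested genes were GPR83 and ARPC3P3, with few counts, and PANX1 (log2 fold change -0.18). Farther out on that side, CEP295 (0.11) and C11orf54 (0.15) did not pass, and MED17, TAF1D and SMCO4 were lower by the adjusted p. On the other side the nearest were PIWIL4 (-0.30), with few counts, FUT4 (-0.02), AMOTL1 (-0.13), CWC15 (-0.16) and KDM4D (-0.62). SRSF8 (0.20) and ENDOD1 (0.07) followed. Over the 25 tested genes within 2 Mb other than MRE11 and ANKRD49, the median log2 fold change was -0.16. A difference of the region as a whole was not tested. Within 1 Mb, 14 genes outside the set were tested. By edgeR 0 of them were called lower and 2 higher, LNCRNA-IUR included. By the adjusted p alone 4 were lower and 3 higher, and the median of the 14 was 0.07.

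SESN3, a sestrin induced by stress that restrains mTORC1, had 154, 188 and 76 counts in WT and 2123, 2056 and 1660 in KO. This was 6.25 ± 0.612 against 85.3 ± 8.50 CPM (SD, n = 3), with the groups far apart, so that SESN3 rose while lying 738.7 kb from MRE11 (log2 fold change 3.80, SE 0.0840, edgeR adjusted p = 7.87e-28). The long noncoding gene LNCRNA-IUR, which overlaps SESN3 on the opposite strand, had 4, 1 and 0 counts in WT and 25, 28 and 23 in KO. Because it entered the fit only through the KO libraries it had to differ, so no test is given for it, and a share of counts from SESN3 was not tested. CCDC82, 1896.1 kb away, had 744, 761 and 281 counts in WT and 201, 186 and 150 in KO. Its level fell from 26.0 ± 1.04 to 7.84 ± 0.815 CPM (SD, n = 3), close in size to the difference of MRE11 (log2 fold change -1.74, SE 0.0856, edgeR adjusted p = 3.57e-18).

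The remaining tested genes within 1 Mb stayed below the limit on size. The lower ones by the edgeR adjusted p were KDM4D, a histone demethylase gene (log2 fold change -0.62, adjusted p = 0.000569), SMCO4 (-0.39, 0.0012), the Mediator subunit MED17 (-0.30, 3.54e-05) and TAF1D, of the RNA polymerase I initiation machinery (-0.24, 0.000143). SRSF8, a splicing factor gene, was higher (0.20, adjusted p = 0.00157). PANX1, a channel protein gene, had a log2 fold change of -0.18 and an edgeR adjusted p at the threshold itself (0.05), which fell under it in 2 of 12 alternative fits. CEP295, C11orf54, ENDOD1, SNORD6, ARPC3P3 and ENSG00000279696 did not pass, with log2 fold changes of 0.11, 0.15, 0.07, 0.38, 0.07 and -0.22.

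**Figure D4:**
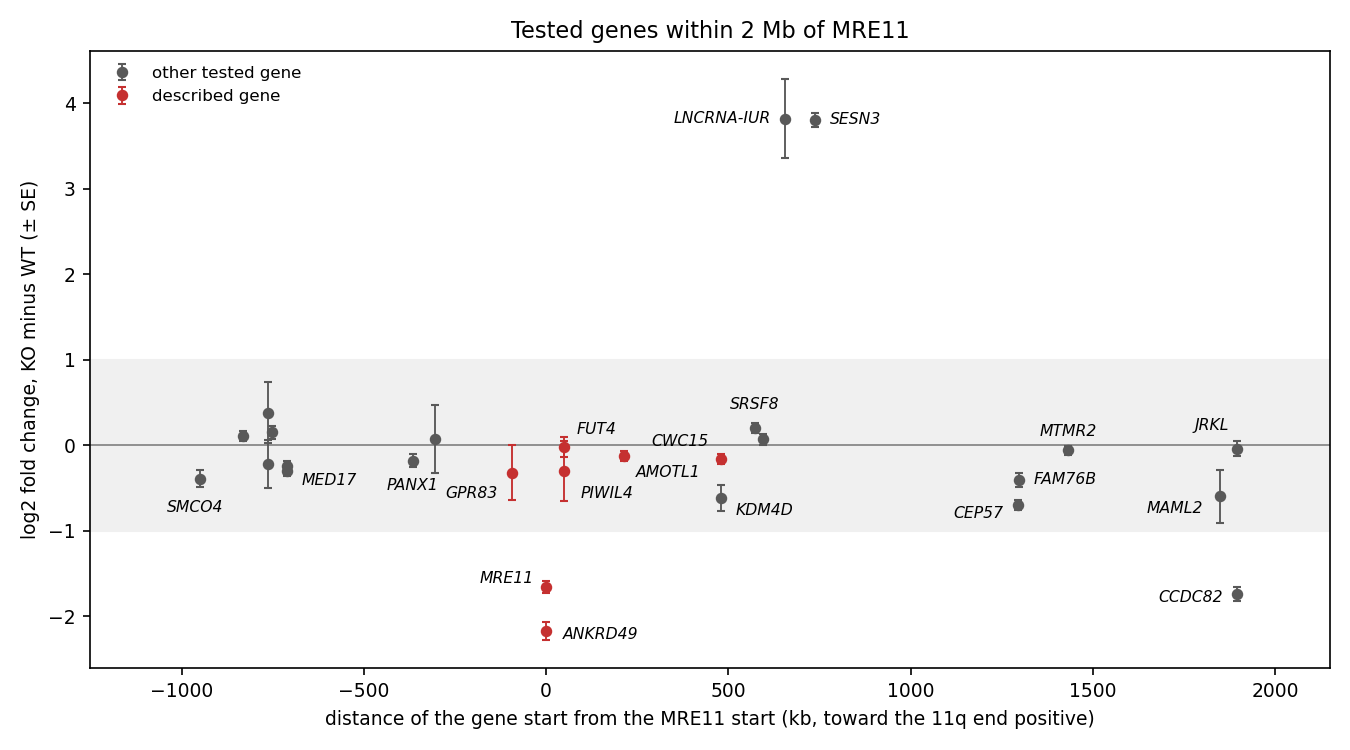
Log2 fold change (KO against WT) of the tested genes within 2 Mb of MRE11 against the distance of their start from that of MRE11 in kb, with error bars for the SE, the genes of the set in red and the range from -1 to 1 shaded. MRE11 and ANKRD49 stand low at the centre, CCDC82 is low and SESN3 and LNCRNA-IUR are high to the right, and most other genes lie near 0.

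Since MRE11 and ANKRD49 begin side by side, the other opposing pairs of the window were examined, a step chosen after these values were seen. In the window, 5 pairs of tested protein-coding genes had starts within 1000 bases of each other on opposite strands. The starts of CCDC82 and JRKL are 33 bases apart, yet CCDC82 fell as above and JRKL had a log2 fold change of -0.04 (SE 0.0891, edgeR adjusted p = 0.737). In the pair CEP57 and FAM76B, 444 bases apart, CEP57, a centrosomal protein gene, fell by 0.70 on the log2 scale (edgeR adjusted p = 1.74e-12) and FAM76B by 0.41 (4.23e-05). MED17 and TAF1D start 164 bases apart and CWC15 and KDM4D 123 bases apart, with the values given above. The differences between the genes of a pair were not tested.

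The proteins that work with the MRE11 complex were examined as lists of related genes that exclude the 9. These and the lists below were drawn up with earlier results of these data known, so the p-values of their genes are not independent support. Over all genes tested, 7.73% were called lower and 8.30% higher. By the adjusted p alone, 32.0% were lower and 31.9% higher. The counts of each list stand beside these shares, and a difference of any list from them was not tested. Of 18 genes of MRE11 partners and break signalling, all tested, 1 was called lower and 0 higher, with 5 lower and 6 higher by the adjusted p alone and a median log2 fold change of 0.02. The called gene was CHEK2, the checkpoint kinase that ATM activates, with 51.2, 51.3 and 54.5 CPM in WT and 17.9, 18.3 and 19.0 CPM in KO. Its groups were far apart and 35.3% of the WT level remained (log2 fold change -1.50, SE 0.0633, edgeR adjusted p = 5.63e-20). ATM itself, picked here after its values were seen, had 76.1, 76.8 and 83.7 CPM in WT and 87.3, 82.8 and 91.6 CPM in KO. Those groups overlapped and the difference was small (0.15, SE 0.0538, edgeR adjusted p = 0.0151).

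Of the 17 end resection genes, 0 were called by edgeR, voom/limma or DESeq2 in either direction, although 5 were lower and 2 higher by the adjusted p alone, and the median was -0.08. WRN, a helicase, was higher (log2 fold change 0.47, edgeR adjusted p = 1.39e-07) and the helicase BLM was lower (-0.43, 1.95e-07), while SHLD1 of the shieldin complex had overlapping groups (-0.46, 0.0852). RBBP8, which encodes the MRE11 cofactor CtIP and was picked after its values were seen, went from 85.5 ± 2.95 to 64.7 ± 0.133 CPM (SD, n = 3). It was thus lower, though short of the limit on size (-0.41, edgeR adjusted p = 2.63e-08).

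Of 12 genes tied to MRE11 at stalled forks, 1 was called higher and 0 lower, with 3 lower and 4 higher by the adjusted p alone and a median of 0.04. The called gene, RADX, encodes a protein that binds single-stranded DNA at forks. It rose from 17.1 ± 0.530 to 45.9 ± 0.974 CPM (SD, n = 3; log2 fold change 1.42, SE 0.0647, edgeR adjusted p = 4.6e-19).

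RAD50 belongs to the SMC family of coiled-coil ATPases. Of its 7 listed relatives 6 were tested, and 0 were called by edgeR, voom/limma or DESeq2. By the adjusted p alone 4 were lower and 2 higher (66.7% and 33.3%, against 32.0% and 31.9% of all genes), and the median was -0.18. SMC3 of cohesin went from 212 ± 4.60 to 145 ± 8.32 CPM and SMC6 from 180 ± 6.32 to 123 ± 3.50 CPM (SD, n = 3), each with a log2 fold change of -0.55, near the -0.57 of RAD50 (edgeR adjusted p = 2.52e-11 and 1.26e-11). SMC4 of condensin was higher (0.30, edgeR adjusted p = 2.33e-06).

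The families of the neighbours were listed in the same way. In the motin list, 7 genes with a median of -0.19, AMOTL2 was called lower, and 5 genes were lower by the adjusted p alone. AMOTL2, the paralog of AMOTL1, had 73.9, 82.6 and 76.6 CPM in WT and 5.66, 7.43 and 6.46 CPM in KO, the widest gap of any list gene (log2 fold change -3.57, SE 0.0796, edgeR adjusted p = 9.49e-28). Of 10 fucosyltransferase genes 4 were tested, and FUT1 was called higher on few counts, 17, 8 and 3 in WT against 33, 19 and 20 in KO. It passed the filter on low counts through the 3 KO libraries, with 1 WT library over the limit, so no test is given for it. The list had 2 lower and 1 higher by the adjusted p alone and a median of -0.13. Of 7 PIWI and Argonaute genes 4 were tested, 0 were called by edgeR, voom/limma or DESeq2 and 2 were lower by the adjusted p alone, AGO3 (-0.28, 4.8e-05) and AGO4 (-0.26, 0.000846), with a median of -0.11.

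Among 10 spliceosome partners of CWC15, 0 were called by edgeR, voom/limma or DESeq2, 3 were lower and 1 higher by the adjusted p alone, and the median was -0.02. The 3 lower ones were PPIL1 (log2 fold change -0.60, edgeR adjusted p = 3.97e-11), SYF2 (-0.56, 2.53e-09) and CTNNBL1 (-0.42, 2.83e-08). Over all 78 tested genes of the 88 listed, 2 were called lower (2.56%) and 2 higher (2.56%, FUT1 included), against 7.73% and 8.30% of all genes tested. By the adjusted p alone 29 were lower (37.2%) and 16 higher (20.5%), against 32.0% and 31.9% of all genes, and the median log2 fold change was -0.06. The differences of these shares from those of all genes were not tested.

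**Figure D5:**
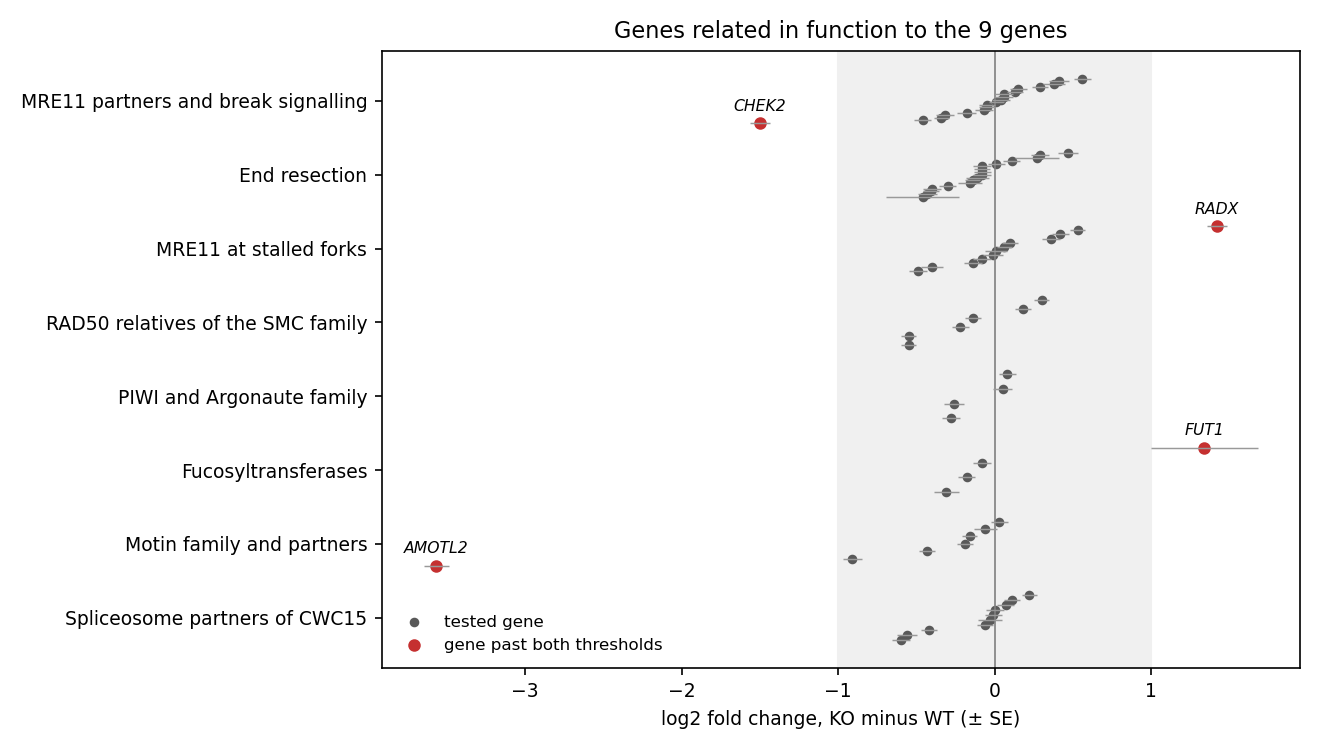
Log2 fold change (KO against WT) of the tested genes of each list, a point per gene with error bars for the SE, the range from -1 to 1 shaded. The points outside it are CHEK2 and AMOTL2 on the low side and RADX and FUT1 on the high side.

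The tested genes whose pattern over the 6 libraries was most like that of MRE11 were sought by the root mean square difference of their log2(CPM + 0.5) values, after each gene's mean was taken off. The nearest were GNPNAT1 (0.0361), SLC16A9, TOM1L2, FGD6 and ZBTB33, with log2 fold changes from -1.77 to -1.60. For ANKRD49 they were SERPINF1 (0.0390), CIBAR1, GRIA4, PIK3CD and SCCPDH. Of these 10 genes, GRIA4 lies on chromosome 11. Between MRE11 and ANKRD49 the difference was 0.232, which placed ANKRD49 at rank 366 for MRE11 and MRE11 at rank 211 for ANKRD49. With 3 libraries per group this measure reflects mainly the size of the group difference.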

How the data were processed

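RNA-seq of A2780 WT and CDK12 KO cells, 3 libraries each, was grouped by the labelled genotype. The authors deposited raw counts per gene, without normalization. Per the labels and the study's methods, stranded single-end reads were aligned to GRCh38 with STAR and counted with HTSeq. Tool versions, the annotation release and the strand setting of the counting are not given in the sources used here, so reads of overlapping genes may be divided otherwise than by strand. Positions come from GENCODE release 44, in which 56321 of 60483 listed identifiers (93.1%) were found, and promoter windows from RefSeq.

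The comparison of KO with WT used edgeR 4.0.16 in R 4.3.3, with filterByExpr (minimum count 10, minimum total 15), TMM and the two-sided quasi-likelihood test with Benjamini-Hochberg adjustment over 16198 genes. A call needed a log2 fold change beyond 1 in size and an adjusted p under 0.05, the study's limits. CPM used TMM-scaled totals. Library totals ranged from 11098400 to 30899045, and the common biological coefficient of variation was 4.35%. No 2 libraries of a group agreed within counting noise (chi-square per degree of freedom 1.65 to 6.42). The 9 genes, the related lists and the markers were chosen with earlier results of these data known. Genes were named where they were members, were within 1 Mb of MRE11, were called from 1 to 2 Mb away or in a list, were among up to 3 of the largest differences of a list without calls, were among the 5 most like MRE11 or ANKRD49, or overlapped a member; 2 exceptions, ATM and RBBP8, are marked, as are the opposing gene pairs. Alternatives were voom/limma (limma 3.58.1, the study's tool), DESeq2 1.42.0, other scalings and filters, each library left out, the adjusted p alone and a window of 1 Mb. The fits were checked on simulated counts. Ratios used merged exon length or the longest transcript.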

Additional observations from a re-analysis of the deposited data

How the results depend on the processing

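No paired analysis was possible because the labels number the libraries 1 to 6 without tying any WT library to a KO library. MRE11, RAD50 and ANKRD49 kept their direction in all 12 alternative fits, with ranges of -1.71 to -1.63, -0.60 to -0.52 and -2.24 to -2.09. Of 106 values of the 9 genes, 103 moved by less than 1 SD of the replicates. Leaving out 1 of 3 libraries can hardly move a group mean by that much, and all fits reuse the same libraries. Nothing is therefore read from this count. The values that moved farther belonged to genes with few counts. Leaving out 1 library gave -0.89 to -0.06 for GPR83 and -0.65 to 0.06 for PIWIL4. Neither could be fitted with at least 10 counts required in every library. That filter, which tests fewer genes, left 684 genes called lower and 568 higher of 1252 and 1345, 1 higher in the 2 Mb window and 1 higher over all lists. Without a filter beyond 1 count, 2 genes of the window were called lower, the addition being SRP14P2 with 7, 12 and 2 counts in WT and 4, 2 and 1 in KO, and 3 were called higher, the addition being SLC36A4 with 2, 2 and 2 counts in WT and 4, 5 and 14 in KO. By the adjusted p alone, 5188 genes were lower and 5165 higher, 7 were lower in the window, and 29 were lower and 16 higher over all lists. A window of 1 Mb held 0 lower calls, since CCDC82 lies outside it. Other scalings moved the median of all genes by at most 0.028. Depth limits GPR83, PIWIL4, FUT1 and LNCRNA-IUR, which had few counts.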

Other observations

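Over the whole genome, 1098 pairs of tested protein-coding genes on opposite strands had starts within 1000 bases of each other. The comparison was made after the values of MRE11 and ANKRD49 were seen. In 63 of these pairs at least 1 gene was called lower in KO, and in 13 of the 63 (20.6%) both genes were. MRE11 with ANKRD49 was 1 of the 13, so this share includes the pair that prompted the comparison. CHEK2 with HSCB was another, with log2 fold changes of -1.50 and -1.10. DNAI4 with MIER1, 39 bases apart, had -1.24 and -2.11, and SLC25A12 with METAP1D, 84 bases apart, had -1.09 and -2.24. These example pairs were picked after the values were seen. Of 84 pairs with at least 1 gene called higher, 8 held both (9.52%), and the difference between these shares was not tested. Over all genes tested, 7.73% were called lower and 8.30% higher. The share of pairs with both genes called that genes taken singly would give was not worked out. In 2 pairs the genes were called in opposite directions. With at least 10 counts required in every library, 5 pairs had both genes lower. No share is given under that filter, which tests fewer genes, so the 5 cannot be set against the shares above.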
